A study of Mus musculus with 10 samples.

Results

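The regions described here are the Klf9 regions that lie in crowded stretches of the mouse genome. They were chosen by their listed positions: each region was placed by its midpoint in a window of 1 Mb, and every region in a window of 10 or more was taken, with chromosomes 7 and 11 left out. This gave 510 regions in 37 windows on 12 chromosomes, 17.9% of the 2845 regions outside chromosomes 7 and 11 and 14.5% of the 3516 in the list. Because position chose the members, their density is a description and was not tested.

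The list comes from HT22 cells, an immortalised line of mouse hippocampal neurons. A first line, HT22[BirA], carried the construct pSV40-zeo-BirA-V5, which supplies the biotin ligase BirA, and was kept under zeocin. The other, HT22[BirA/FLBIO-Klf9], carried pSV40-zeo-BirA-V5 together with pEF-FLBIO-Klf9, which supplies Klf9 with a tag named FLBIO, and was kept under zeocin and puromycin. Both lines were stably transfected, so the tagged Klf9 that was recovered came from an introduced construct, beside whatever the cells' own gene made. Whether either line was a single clone is not given in the sources used here. Each line gave 1 input library and 4 pulldown libraries, in all 10 libraries. A single list of chromosome, start and end stands for all of them, with no height or p-value, so no value below has a replicate error and the BirA-only control cannot be set beside any region.

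Klf9 is a zinc-finger transcription factor of the Krüppel-like family, whose members bind GC-rich elements and CACCC boxes, many of them close to gene starts. In neurons its gene responds to thyroid hormone and glucocorticoids, and the protein acts largely as a repressor of transcription. Genes are spread unevenly along mouse chromosomes, with gene-rich and gene-poor stretches of a megabase and more. Positions below are those of the deposited list, counted from 1; the submitters' processing notes name the build mm8. No genome of that build was used, so no bases of these regions are shown and no region is given to a gene.

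On the 18 chromosomes used, most of the sequence outside these windows held few regions. The left-out chromosomes 7 and 11 held 7 and 9 further windows of 10 or more, with 93 and 118 regions. Of the 935 windows with any region on the chromosomes used, 37 (3.96%) reached 10, and the median occupied window held 2. The counts had a long upper end: 4 windows held 25 or more, and the other 33 held 10 to 17. The window with the most, chromosome 19 from 5 to 6 Mb, held 32 regions. Next came the window from 80 to 81 Mb on chromosome 10, with 29, and its neighbour from 79 to 80 Mb, with 25. The window from 76 to 77 Mb on chromosome 15 also held 25, and that from 34 to 35 Mb on chromosome 17 held 17. Together these 5 windows contained 128 of the 510 regions (25.1%).

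**Figure D1:**
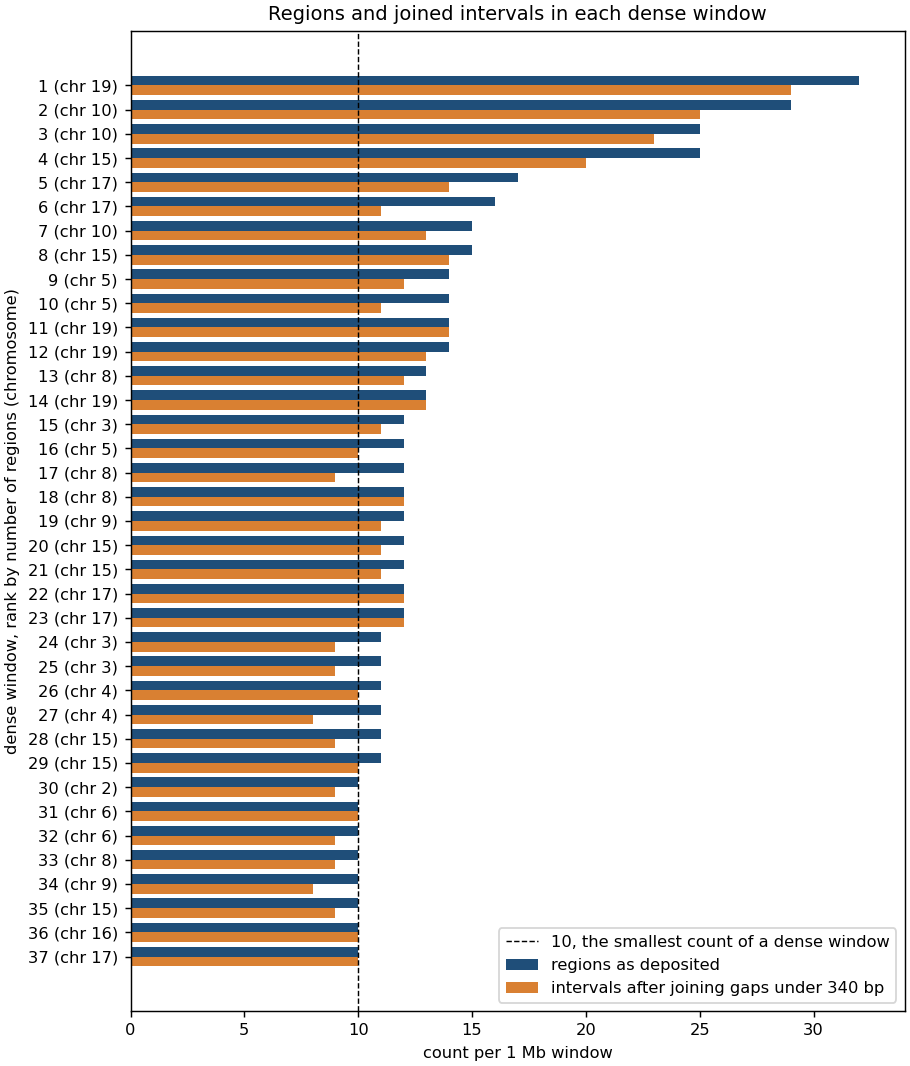
Number of regions as deposited (blue) and of intervals after joining regions less than 340 bp apart (orange) in each of the 37 dense windows, ranked by deposited count; the y axis gives rank and chromosome. The first 4 windows hold 25 to 32 regions, no other exceeds 17, and 10 windows drop below the dashed line at 10 after joining.

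The remaining windows were spread over all 12 chromosomes. Among these 12, chromosome 15 had the most windows, 7. They started at 38, 76, 78, 81, 98, 99 and 102 Mb, with 10, 25, 12, 11, 12, 15 and 11 regions. Chromosome 17 had 5, starting at 26, 33, 34, 35 and 46 Mb, with 12, 12, 17, 16 and 10 regions. On chromosome 19 the 4 windows from 4 to 8 Mb held 14, 32, 14 and 13 regions. Chromosome 8 also had 4, starting at 73, 87, 108 and 126 Mb, with 12, 13, 12 and 10 regions. Chromosomes 15, 17 and 19 thus carried 16 of the 37 windows, with 236 of the 510 regions. In all they held 215, 226 and 182 of the 2845 regions outside chromosomes 7 and 11.

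Chromosomes 3, 5 and 10 had 3 windows each. Those on chromosome 3 started at 88, 89 and 96 Mb and held 11, 11 and 12 regions. Those on chromosome 5 started at 123, 137 and 143 Mb and held 12, 14 and 14. On chromosome 10 a further window, from 127 to 128 Mb, held 15 regions and lay far from the pair at 79 to 81 Mb. Chromosomes 4, 6 and 9 had 2 windows each. Those at 128 and 129 Mb on chromosome 4 held 11 regions each, those at 72 and 83 Mb on chromosome 6 held 10 each, and those at 21 and 44 Mb on chromosome 9 held 10 and 12. Chromosome 2 (30 Mb) and chromosome 16 (32 Mb) had 1 window of 10 regions each.

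The share of a chromosome's regions found in dense windows differed widely. It was 44.7% on chromosome 15 (96 of 215 regions), 40.1% on chromosome 19 (73 of 182), 32.9% on chromosome 10 (69 of 210) and 29.6% on chromosome 17 (67 of 226). At the other end it was 5.15% on chromosome 2 (10 of 194) and 8.94% on chromosome 4 (22 of 246). Chromosome 5, with 280 regions the most of the 18 chromosomes, had 40 in dense windows (14.3%). Chromosomes 1, 12, 13, 14, 18 and X had none, although chromosome 1 held 147 regions in all. The chromosomes with most regions were thus not always those with the largest share in dense windows. Chromosome length was not taken into account here.

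**Figure D2:**
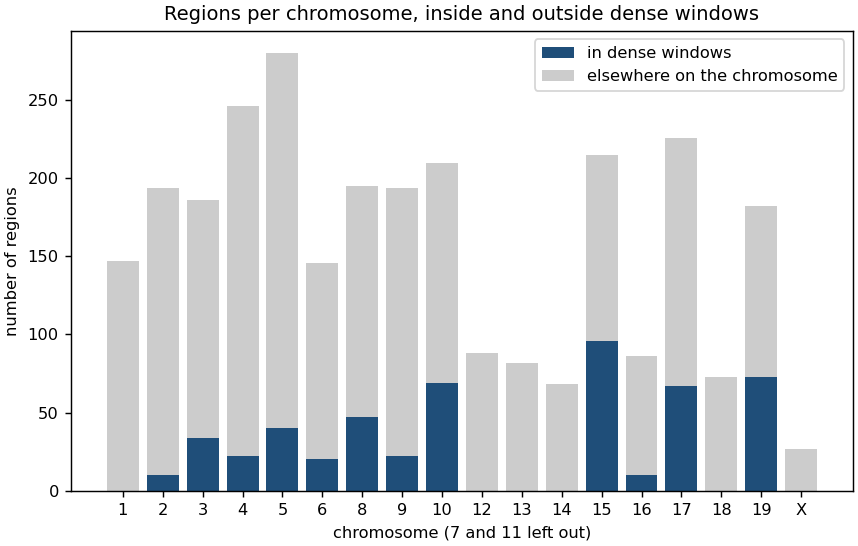
Number of regions on each of the 18 chromosomes used, split into those in dense windows (blue) and those elsewhere (grey). Chromosome 15 has the most regions in dense windows, 96, while chromosomes 1, 12, 13, 14, 18 and X have none.

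Dense windows often adjoined each other. There were 6 runs of 2 or more successive windows, which took in 15 of the 37 windows and 243 regions (47.6%). The longest, chromosome 19 from 4 to 8 Mb, held 73 regions over 4 windows and covered 68754 bp. Chromosome 17 from 33 to 36 Mb held 45 over 3 windows. The others spanned 2 windows each. They held 54 regions (79 to 81 Mb, chromosome 10), 27 regions (98 to 100 Mb, chromosome 15) and 22 regions each (88 to 90 Mb, chromosome 3, and 128 to 130 Mb, chromosome 4). Some runs had abrupt sides and others did not. The windows on either side of the chromosome 10 run held 0 and 1 regions, and those beside the chromosome 4 run held 0 and 0. The run on chromosome 19 was bordered by 3 and 8 regions, and that on chromosome 3 by 3 and 9.

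Windows next to a dense one were themselves fuller than most. The 54 bordering windows that were not dense held a median of 4 regions (quartiles 2 and 6), and 8 of them (14.8%) were empty. On the same chromosomes the 1389 windows that were neither dense nor bordering had a median of 0 and a mean of 1.18, against a mean of 3.94 in the bordering ones, and 783 (56.4%) were empty. Windows were counted from the first to the last that held a region on each chromosome. A count of regions up to 500 kb to either side of each region does not depend on where windows begin, but it uses the same positions that chose the members and is given as a description. It had a median of 13 (4 to 38, the region itself included) for dense-window regions and of 4 (1 to 24) for the 1850 regions elsewhere on the same 12 chromosomes. The highest value, 38, belonged to the region from 5845281 to 5846191 on chromosome 19. Values of 20 or more were reached by 2 regions elsewhere and by 113 dense-window regions, 51 on chromosome 10, 38 on chromosome 19, 23 on chromosome 15 and 1 on chromosome 17.

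The boundary of the set at 10 per window passed through a continuous range of counts. Just inside it stood 8 windows of 10 regions, with 80 regions of median width 934.5 bp, of which 32 (40.0%) had another region within 10 kb. Just outside stood 13 windows of 9, with 117 regions of median width 819 bp, of which 48 (41.0%) had another within 10 kb. Among the regions elsewhere on the 12 chromosomes, 137 (7.41%) had 10 or more within 500 kb on either side, while 422 of the 510 members (82.7%) did. This contrast follows largely from the rule, which used the same positions, and is given as a description.

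Within a window the regions occupied a small part of the sequence. The 510 regions covered 465040 bp, 1.26% of the 37 windows, and a window's covered length had a median of 10949 bp. It was highest on chromosome 19 from 5 to 6 Mb, at 29657 bp (2.97% of the window), and lowest on chromosome 16 from 32 to 33 Mb, at 7580 bp (0.758%). From the first base of the first region to the last base of the last, the regions of a window extended over 464 kb to 999.6 kb, with a median of 787.6 kb. Between successive regions of the same window there were 473 gaps, with a median of 27.5 kb. Of these, 58 were under 340 bp, 93 measured 340 bp to 10 kb, 240 lay above that up to 100 kb, and 82 exceeded 100 kb.

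The windows differed in how their regions were arranged. On chromosome 17 from 35 to 36 Mb, all 16 regions lay within 464 kb and 14 of them had another within 10 kb. In that window 11 regions stood inside 100 kb, from 35429361 to 35518470, and covered 9679 bp. On chromosome 5 from 143 to 144 Mb, 12 of 14 regions had another within 10 kb, and 8 lay between 143159802 and 143230060. On chromosome 3 from 88 to 89 Mb, 9 of 11 did, and 7 lay between 88578161 and 88640040. These were the windows with the highest shares of close regions as deposited, 87.5%, 85.7% and 81.8%. In the same order, 10, 5 and 4 of their regions had another closer than 340 bp. With such neighbours counted as 1 interval, the windows held 11, 11 and 9. Shares of close intervals were not computed for single windows.

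The reverse arrangement was seen on chromosome 6 from 72 to 73 Mb, where 0 of 10 regions had another within 10 kb. They began at 72026621, 72163301, 72284352, 72309841, 72402661, 72441972, 72478212, 72810661, 72855881 and 72887262, and the closest pair was 24480 bp apart. On chromosome 15 from 99 to 100 Mb, 2 of 15 regions had a close neighbour. On chromosome 17 from 46 to 47 Mb, a gap of 735 kb, the largest inside any of the 37 windows, separated 2 parts of a window of 10. In the window with most regions, chromosome 19 from 5 to 6 Mb, the 100 kb with the most held 7 of 32, so the regions there were spread along its length. The 37 windows had a median of 5 regions in their fullest 100 kb, and in 8 windows that stretch held 50% or more of the regions.

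**Figure D3:**
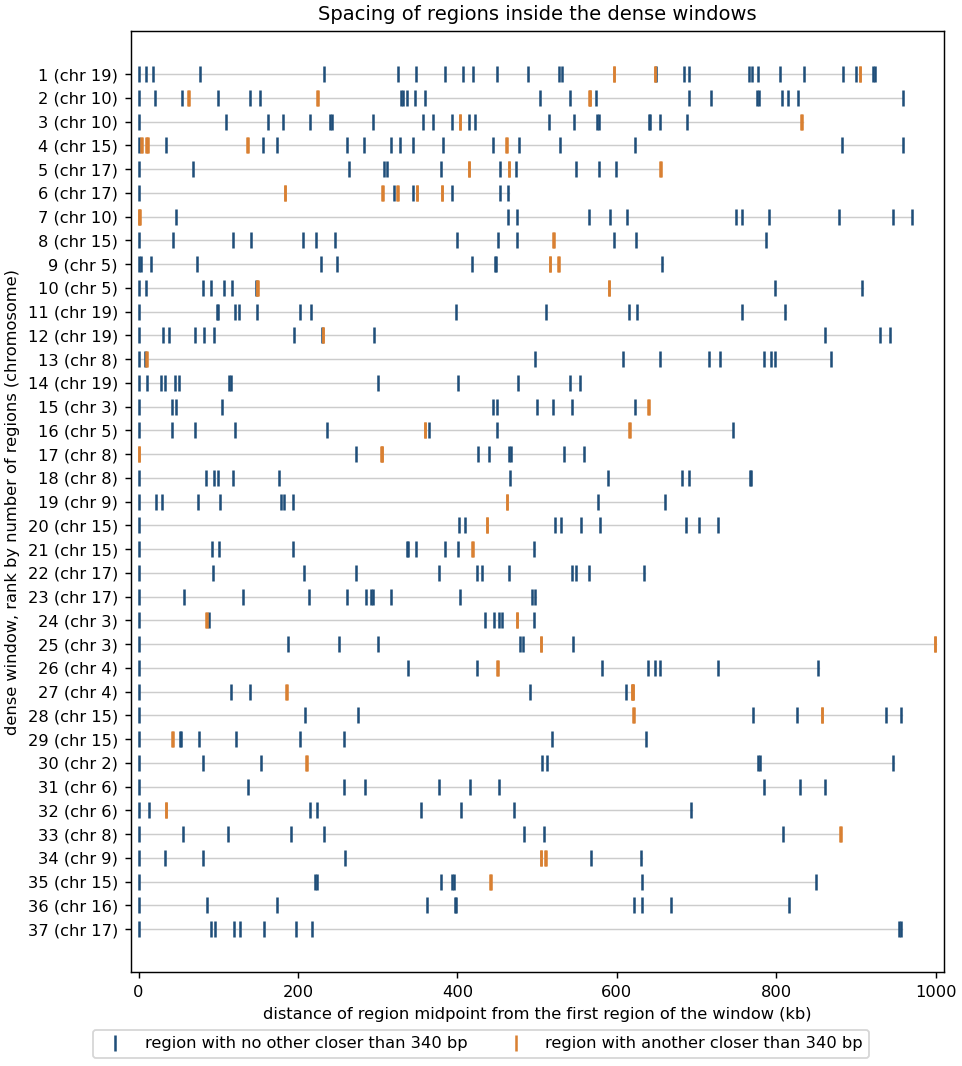
Each row is a dense window, ranked as by count, and each tick is a region at the distance of its midpoint from the first region of its window (kb); orange ticks have another region closer than 340 bp. The regions of window 6 on chromosome 17 are gathered within 464 kb, while the 10 of window 31 on chromosome 6 stand apart.

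At short range, 258 of the 510 regions (50.6%, exact 95% interval 46.2 to 55.0%) had another region within 10 kb. Elsewhere on the same chromosomes it was 447 of 1850 (24.2%, 22.2 to 26.2%). The share was higher in dense windows on 11 of the 12 chromosomes, and on chromosome 6 it was 4 of 20 regions against 20.6%. Closeness follows in part from the way the windows were chosen, so this difference was not tested. Intervals here cover only counting error, as if regions were independent, which neighbours are not. The median distance to the nearest region was 9.86 kb (95% interval 8.06 to 12.1 kb) in dense windows and 66.7 kb (59.95 to 76.5 kb) elsewhere. In dense windows 25 regions (4.90%) had no other within 100 kb, compared with 767 (41.5%) elsewhere.

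**Figure D4:**
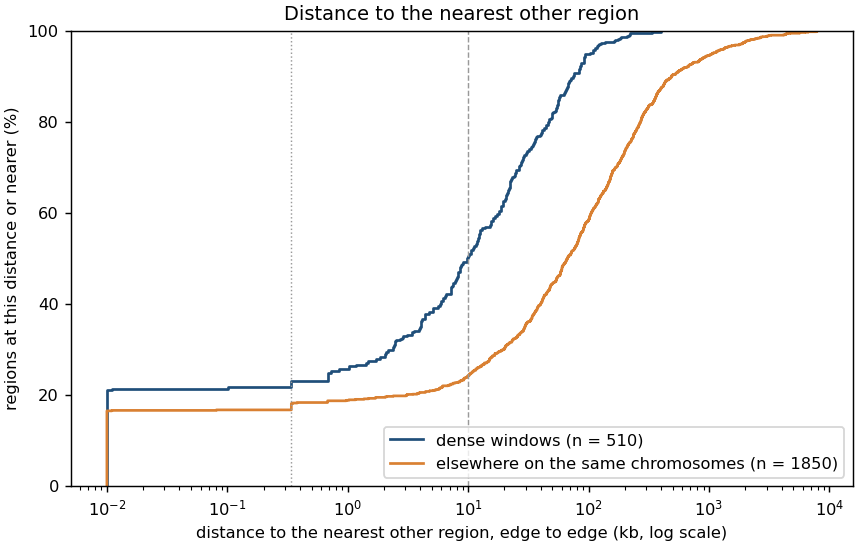
Cumulative share of regions (y axis, %) by distance to the nearest other region (x axis, kb, log scale), for the 510 regions in dense windows (blue) and the 1850 elsewhere on the same chromosomes (orange); the dotted and dashed lines mark 340 bp and 10 kb. The curves start near each other at 10 bp and part between 1 and 100 kb.

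The difference in close neighbours lay mostly beyond 340 bp. A nearest region 340 bp to 10 kb away was found for 147 members (28.8%, 24.9 to 33.0%) and for 138 regions elsewhere (7.46%, 6.30 to 8.75%). A region closer than 340 bp was found for 111 members (21.8%, 18.3 to 25.6%) and 309 elsewhere (16.7%, 15.03 to 18.5%). Each of 2 regions closer than 340 bp counted when the windows were chosen, so both differences follow in part from that choice. They were not tested. The share closer than 340 bp was higher in dense windows on 9 of 12 chromosomes. Chromosome 19 went the other way, with 10.96% in its dense windows and 25.7% elsewhere, as did chromosomes 6 (10.0% and 15.9%) and 16 (0 of 10 regions and 21.1%).

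Nearly all the smallest gaps had the same size. Of the 58 gaps under 340 bp inside dense windows, 56 were exactly 10 bp. Such neighbours may be counted as separate regions or as 1 interval, and the count of a window depends on that choice. With every gap under 340 bp closed, the 510 regions became 452 intervals, of which 48 combined 2 regions and 5 combined 3. The joined intervals of 2 or more had a median width of 1360 bp, and in them the narrowest piece had a median of 419 bp and the widest 909 bp. After joining, 27 of the 37 windows, with 404 of the 510 regions (79.2%), still held 10 or more. The 10 that did not had 8 or 9 intervals each. They lay on chromosome 2 at 30 Mb, chromosome 3 at 88 and 89 Mb, chromosome 4 at 129 Mb, chromosome 6 at 83 Mb, chromosome 8 at 73 and 126 Mb, chromosome 9 at 21 Mb and chromosome 15 at 38 and 81 Mb.

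Joining lowered the counts of the 6 fullest windows by 2 to 5. The window on chromosome 19 at 5 Mb went from 32 regions to 29 intervals, those on chromosome 10 at 80 and 79 Mb from 29 and 25 to 25 and 23, and that on chromosome 15 at 76 Mb from 25 to 20. On chromosome 17 the windows at 34 and 35 Mb went from 17 to 14 and from 16 to 11. In 8 windows no gap was under 340 bp, so that their counts stayed as deposited: chromosome 19 at 4 and 7 Mb, chromosome 17 at 26, 33 and 46 Mb, chromosome 8 at 108 Mb, chromosome 6 at 72 Mb and chromosome 16 at 32 Mb. Among joined intervals, 169 of 452 in dense windows (37.4%, 32.9 to 42.0%) and 157 of 1691 elsewhere (9.28%, 7.94 to 10.8%) had another within 10 kb. The windows were still those chosen from unjoined regions, with the 10 that fell below 10 on joining kept. This difference therefore follows in part from the rule and was not tested.

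Linking regions with gaps of at most 10 kb gave 107 groups with the 258 close regions. Of these groups 78 had 2 regions, 18 had 3, 8 had 4, 2 had 5 and 1 had 6. In 31 groups all regions merged into a single interval on joining at 340 bp, and the other 76 held 2 or more separate intervals. The group of 6 lay on chromosome 15 and began with a region of 1360 bp at 76022301. After a gap of 1020 bp came regions of 1721 bp (76024681) and 989 bp, 10 bp apart. After a further 3740 bp, regions of 971, 1070 and 2359 bp followed, each 10 bp from the next, and the last ended at 76035560. These last 3 joined into 4420 bp from 76031141, the widest joined interval of the dense windows.

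The groups of 5 differed in make-up. On chromosome 4, from 129670272 to 129679151, the regions measured 629, 610, 209, 241 and 860 bp, with gaps of 5971, 10, 340 and 10 bp, and covered 2549 bp. On chromosome 10, from 79541981 to 79572240, they measured 680, 1511, 519, 1020 and 1360 bp, with gaps of 8160, 10, 9860 and 7140 bp, and covered 5090 bp. The next groups were 8 tied at 4 regions, of which the first 2 in genomic order are described. On chromosome 3, from 88578161 to 88599580, a region of 1360 bp and 3 of 1020 bp were separated by 9860, 5100 and 2040 bp, none of them close enough to join. On chromosome 5, from 137829972 to 137841710, regions of 800 and 459 bp and of 51 and 889 bp formed 2 pairs with gaps of 10 bp, 9520 bp apart. Every region remained its own interval in the group on chromosome 3 and, among the other groups of 4, in that on chromosome 10 from 80334181 to 80352200, named here after its values were seen.

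In width the dense-window regions were close to the rest at the centre, with a larger share of wide regions at the upper end. Their median was 929 bp (95% interval 890 to 969 bp, from binomial order statistics), against 910 bp (890 to 931 bp) elsewhere on the same chromosomes and 901 bp in the whole list. The quartiles were 680 and 1020 bp in both sets, and the mean was 912 ± 339 bp (SD over regions) against 884 ± 292 bp. The median was higher in dense windows on 8 chromosomes and lower on 4, chromosomes 4 (680 against 909 bp), 5 (779.5 against 919 bp), 10 (879 against 909 bp) and 16 (680 against 894.5 bp). With chromosomes 7 and 11 included, the median in dense windows was 899 bp, just below the 901 bp of the whole list. Widths above 1020 bp were listed for 121 members (23.7%, 20.1 to 27.7%) and 345 regions elsewhere (18.6%, 16.9 to 20.5%). The 95% intervals of these shares overlap. The share was higher in dense windows on 9 of 12 chromosomes. After joining, widths above 1020 bp made up 30.1% of the 452 intervals in dense windows and 22.9% of the 1691 elsewhere. Each piece of a split interval counted as a region when the windows were chosen, so the joined shares depend in part on that choice. These differences in width were not tested, since regions are not replicates.

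**Figure D5:**
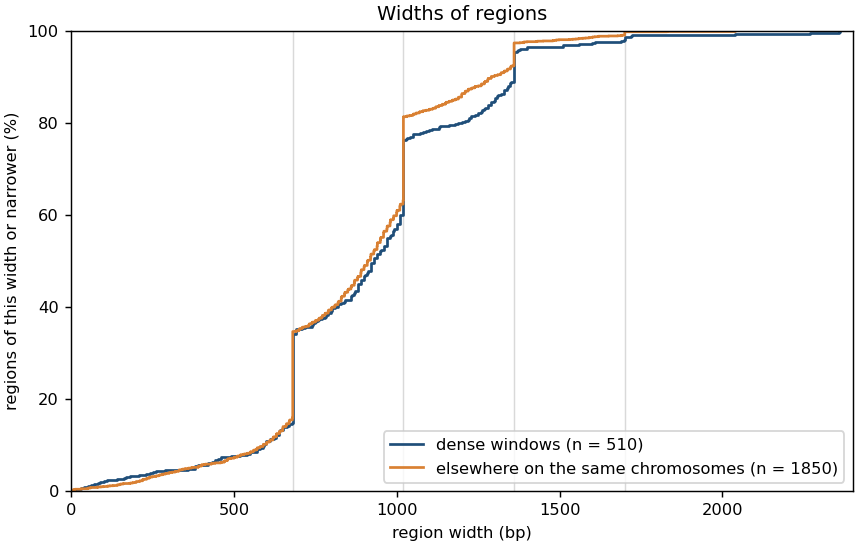
Cumulative share of regions (y axis, %) by width (x axis, bp) for dense windows (blue) and elsewhere on the same chromosomes (orange); grey lines mark 680, 1020, 1360 and 1700 bp. The curves run together up to 680 bp, and above 1020 bp the dense-window curve is lower, with 23.7% of regions wider than 1020 bp against 18.6%.

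Preferred widths were shared by both sets. A width of exactly 680 bp was found for 99 members (19.4%) and 347 regions elsewhere (18.8%), and 1020 bp for 81 (15.9%) and 335 (18.1%). Members of exactly 1360 bp numbered 30 (5.88%), and 90 elsewhere (4.86%). These are multiples of 340 bp, and both boundaries stood on that grid, with the start at a multiple plus 1 and the end at a multiple, for 212 members (41.6%) and 779 regions elsewhere (42.1%). Exactly 1 boundary was on it for 47.3% and 46.4%, and none for 11.2% and 11.5%. The dense windows were thus built from listed regions of the same kinds of boundary, in shares that differed by less than their counting intervals.

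Median width varied between windows. The lowest was 680 bp, in 4 windows: chromosome 3 at 89 Mb, chromosome 4 at 128 and 129 Mb and chromosome 16 at 32 Mb. The highest was 1035 bp, on chromosome 17 at 35 Mb, and 6 windows had a median of 1020 bp. In the window with most regions, on chromosome 19 at 5 Mb, it was 994.5 bp, and in the pair on chromosome 10 at 80 and 79 Mb it was 899 and 801 bp. Of the 37 windows 21 were above the median of regions elsewhere and 16 below it. With 10 to 32 regions each, the medians of single windows are imprecise.

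The widest member, 2360 bp, lay on chromosome 15 from 78753861 to 78756220, with its nearest neighbour 5561 bp away. The next was the last region of the group of 6, 2359 bp from 76033202 to 76035560 on the same chromosome. On chromosome 17 a region of 2269 bp from 26442522 to 26444790 stood alone, 63990 bp from its nearest neighbour. Chromosome 15 also held regions of 2040 bp (76303821 to 76305860) and 1721 bp (76024681 to 76026401). On chromosome 8 a region measured 1719 bp (126139132 to 126140850). The list of 10 widest ended with 4 regions of 1700 bp. Of these, 1 was on chromosome 15 (38245241 to 38246940), 2 were on chromosome 17 (26660081 to 26661780 and 35587121 to 35588820) and 1 was on chromosome 19 (5424021 to 5425720). Chromosome 15 held 5 of these 10 and chromosome 17 held 3.

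A width of 1700 bp or more was reached by 10 members (1.96%, 0.944 to 3.58%) and 16 regions elsewhere (0.865%, 0.495 to 1.401%). Of the 10 widest regions of the whole list as deposited, 4 were members, which made up 14.5% of the list. Joined intervals of 2000 bp or more numbered 15 in dense windows (3.32%) and 24 elsewhere (1.42%), and 12 of the 15 consisted of 2 or more regions. After the 4420 bp interval on chromosome 15, the widest was 3060 bp on chromosome 10, from 79978881 to 79981940. These counts are small, and their intervals overlap for single regions. Pieces of joined intervals each counted when the windows were chosen, so the joined counts depend in part on that choice.

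At the lower end 23 members (4.51%) were narrower than 340 bp, as were 85 regions elsewhere (4.59%), and 10 members (1.96%) and 17 elsewhere (0.919%) were narrower than 100 bp. The 3 narrowest members each lay 10 bp from a wider region. The first measured 9 bp (chromosome 17, 35474232 to 35474240), the second 11 bp (chromosome 5, 143228061 to 143228071) and the last 31 bp (chromosome 19, 6278101 to 6278131). The regions 10 bp from them measured 1341, 1050 and 639 bp. The second and the last also followed a region of 1360 bp after a gap of 340 bp. Such a sliver adds 1 to its window's count and almost nothing to its covered length, and with the 10 members under 100 bp left out the median width was 939.5 bp.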

How the data were processed

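The authors deposited 1 list, which holds a chromosome, a start and an end for each region, per the file headers. These values are positions in bp, other than counts or signal. CASAVA, FastQC, Bowtie, bedtools and the build mm8 are named per the submitters' processing notes, without versions. Not given in the sources used here: the peak caller, its thresholds, and the use of replicates, input and control. Depth per library is unknown here.

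Positions were read as 1-based and inclusive. Gaps are the bases between neighbouring regions of the whole list. Windows were set from multiples of 1 Mb. Shares have exact (Clopper-Pearson) 95% intervals. No test was run, because the rule used the positions and no values per library exist in the list. The members, measures and comparisons were chosen with earlier results of these data known. Named in full were the 5 windows and 5 groups with most regions (ties in genomic order), adjoining windows, and the 10 widest and 3 narrowest regions. Windows singled out for their arrangement were chosen after their values were seen. GC content, motifs and gene positions were planned only for a genome of the list's build and were not run; the RefSeq tables of GRCm38 were not used. The selection was tested on 1 simulated list. Its windows held either 10 or more regions or far fewer, so counts just under 10 were not tried. Python 3.11.15, pandas 2.3.3, numpy 2.4.6, scipy 1.17.1 and matplotlib 3.10.9 were used.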

Additional observations from a re-analysis of the deposited data

How the results depend on the processing

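Of 40 alternatives, 28 stayed within the limits set. These were 1.5 times the value for counts and median covered length, and the 95% interval for median width and shares. The set depends on where windows begin: with windows moved by 500 kb there were again 37 dense windows, with 524 regions, but these shared 339 regions with the members, 66.5% of the members and 64.7% of the 524. Dense windows numbered 64 with a minimum of 8 regions and 23 with a minimum of 12. Counting regions within 10 kb as 1 left 11 dense windows with 152 intervals. Joining regions less than 340 bp apart moved the median width to 1019.5 bp and the share with another within 10 kb to 37.4%, by construction in part; the last of these, and 2 alternatives for covered length, were added after seeing the data. That share was 45.5% with a minimum of 8 regions, 25.7% for a distance of 1 kb and 82.0% for 50 kb. With chromosomes 7 and 11 included there were 53 dense windows with 721 regions. The share with a neighbour less than 340 bp away was then 25.7%, and the median width 899 bp. The share of members in windows that still held 10 after joining was 75.1% with joining at 1 kb and 40.8% at 10 kb. No paired analysis was possible because no values of single libraries are listed, which also meant that none could be left out.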
